A study of Mus musculus with 6 samples.

Results

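The genes described here are 10 genes of the MHC class I presentation pathway, namely B2m, H2-K1, H2-D1, Tap1, Tap2, Tapbp, Psmb8, Psmb9, Psmb10 and Nlrc5. They were taken by gene symbol from a table of 14097 genes, and all 10 of the 10 symbols were found there. All 10 also belonged to the 11067 genes with a value of 50 or more normalized counts somewhere in the 6 libraries (the filter), and every count below is taken over these genes. The table holds RNA-seq of colonic lamina propria P3/P4 macrophages (MΦs), sorted as CD45+ CD11b+ CD11cint CD103- CD64+ Ly6C- MHCII+ cells from untreated 129SvEv mice. Il10rb-/- (KO) mice, which lack a receptor chain that IL10 shares with other cytokines, were compared with Il10rb+/- (het) mice, so the controls also carry 1 Il10rb null allele. Each genotype was sampled once at 1, 3 and 12 weeks of age, which gives 6 libraries. Per the labels, each 1-week library pooled the cells of 3 to 5 mice, and the later libraries came from 1 mouse each. The deletion is in the germ line and is therefore not confined to MΦs.

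MHC class I molecules show peptides from inside the cell to CD8 T cells and are read by NK cells. The proteasome cuts proteins into peptides, the TAP1 and TAP2 heterodimer carries these peptides into the endoplasmic reticulum, and tapasin (Tapbp) holds the transporter close to empty class I molecules, which consist of a heavy chain (H2-K1 or H2-D1) and the light chain β2-microglobulin (B2m). In the immunoproteasome, Psmb8, Psmb9 and Psmb10 take the places of the constitutive catalytic subunits Psmb5, Psmb6 and Psmb7. Nlrc5 is a transactivator that acts on class I promoters through factors bound to their X and Y boxes, and interferon-γ is the textbook inducer of the whole set.

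Because Nlrc5 works through promoter sequence, the upstream regions of the class I light and heavy chain genes are shown first. RefSeq windows on GRCm38.p6 (the assembly also called mm10) were at hand for 8 of the 10 genes, and Tap2 and Nlrc5 have none in that table. Each sequence below holds the 250 bases before the RefSeq start, which can differ from the start of the GENCODE gene model used for positions further on (the H2-D1 window lies within that model). It is read 5′ to 3′ on the strand of the gene, from the first listed window of H2-K1, which has 2. Capitals mark TGACG (the core of the X box), ATTGG (the core of the Y box) and 2 forms of an interferon-stimulated response element, GAAANNGAAA and GAANNGAAA, each on either strand.
B2m, chr2:122147437-122147686, plus strand: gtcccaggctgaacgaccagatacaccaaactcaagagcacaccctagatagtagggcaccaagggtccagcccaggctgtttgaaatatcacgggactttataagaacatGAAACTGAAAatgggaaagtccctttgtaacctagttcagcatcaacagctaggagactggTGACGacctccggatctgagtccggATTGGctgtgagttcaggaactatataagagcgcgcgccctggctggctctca
H2-K1, chr17:34000348-34000597, minus strand: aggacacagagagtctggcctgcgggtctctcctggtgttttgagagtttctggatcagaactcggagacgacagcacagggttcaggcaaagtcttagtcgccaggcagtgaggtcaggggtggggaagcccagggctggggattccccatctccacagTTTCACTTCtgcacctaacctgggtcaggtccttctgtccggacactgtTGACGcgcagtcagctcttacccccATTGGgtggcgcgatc
H2-D1, chr17:35262844-35263093, plus strand: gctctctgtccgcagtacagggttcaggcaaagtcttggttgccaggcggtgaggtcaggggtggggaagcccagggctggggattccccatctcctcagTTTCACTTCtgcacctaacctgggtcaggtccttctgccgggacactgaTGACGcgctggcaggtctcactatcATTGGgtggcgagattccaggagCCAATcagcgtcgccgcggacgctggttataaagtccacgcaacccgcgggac
In these 3 genes TGACG was followed by ATTGG on the same strand after exactly 20 bases, at -78 to -49 in B2m, -41 to -12 in H2-K1 and -101 to -72 in H2-D1, counted from the start site. This arrangement was found in 26 of 27025 genes with a window (0.0962%) and in 3 of the 8 members with one. The motif and the gap were chosen with the member sequences in view, so the count is a description. The longer response element was found in B2m only (936 genes, 3.46%), and the shorter one in H2-K1 and H2-D1 (1974 genes, 7.30%).

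Tap1 and Psmb9 are transcribed away from each other, and their RefSeq start sites lie 226 bases apart on chromosome 17. The 225 bases between these starts are shown on the strand of Tap1, with the same capitals. In the GENCODE models, which overlap here, they lie within Psmb9.
Tap1 to Psmb9, chr17:34187331-34187555, plus strand: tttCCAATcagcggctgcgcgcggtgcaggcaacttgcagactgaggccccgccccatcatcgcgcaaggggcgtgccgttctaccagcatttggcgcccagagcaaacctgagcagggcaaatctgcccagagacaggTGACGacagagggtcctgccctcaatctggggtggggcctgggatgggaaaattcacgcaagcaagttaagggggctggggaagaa
This stretch held 1 TGACG and 1 ATTGG, on opposite strands, and neither response element. It held 5 matches to the NF-κB-like letters GGGNNNNNCC, some of them overlapping, a pattern present in 48.7% of all windows. The Tapbp window held ATTGG alone of these letters, and the Psmb8 and Psmb10 windows held none of them.

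**Figure D1:**
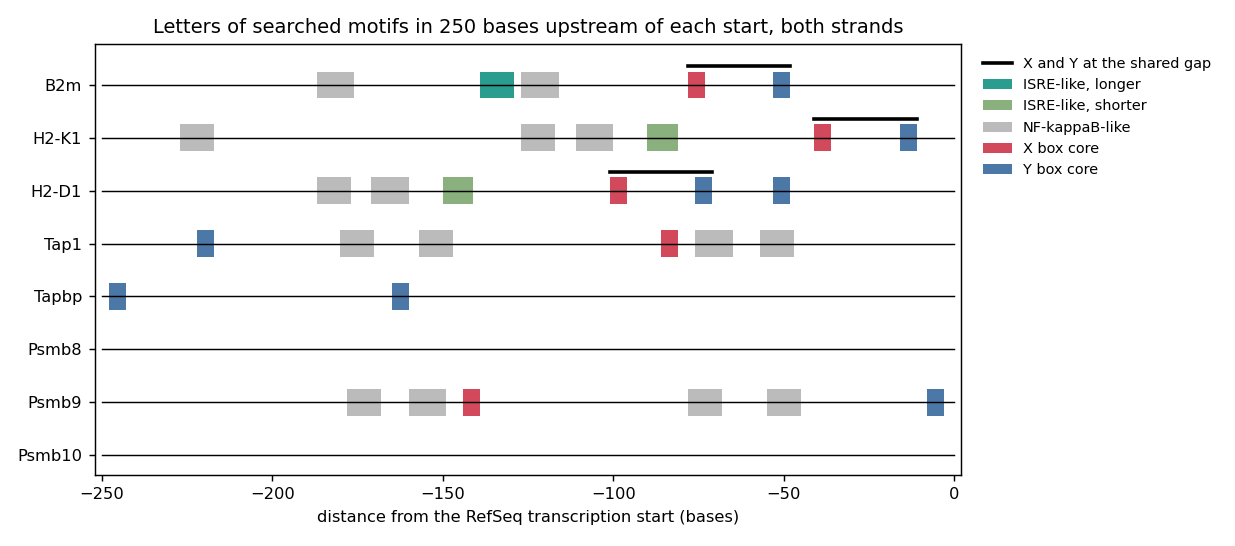
Positions of the searched motif letters in the 250 bases before the RefSeq start of 8 members, with the distance from the start in bases on the x axis. Coloured boxes are matches on either strand, and the black bars over B2m, H2-K1 and H2-D1 mark X and Y box cores 20 bases apart.

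The deposited values are read counts per gene divided by a size factor for each library (normalized counts), with a count of 0 shown as 1. Per kilobase of exon, so that genes can be compared with each other, B2m had between 42338 and 71269 normalized counts in the 3 het libraries. H2-D1 (9734 to 24556) and H2-K1 (9327 to 16671) came next, and their ranges overlapped. Psmb8 (1579 to 2398) and Tapbp (1514 to 1841) followed, again with overlapping ranges. Psmb10 (653 to 788), Psmb9 (561 to 744), Tap2 (481 to 771) and Tap1 (426 to 542) formed a lower tier, in which neighbours in that order overlapped. Nlrc5 was lowest, at 16.6 to 22.4 normalized counts per kilobase. The 10 genes together took 0.649%, 0.605% and 0.838% of the reads in the het libraries at 1, 3 and 12 weeks, and 0.754%, 1.06% and 1.61% in the KO libraries.

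Depth on the listed genes ran from 6700337 reads (het, 3 weeks) to 40754971 reads (het, 12 weeks), and a read counted for 2.43 normalized counts in the former and for 0.473 in the latter. The targeted gene was low where the labels say KO, with 8, 28 and 43 reads of Il10rb at 1, 3 and 12 weeks against 1231, 386 and 2341 in het. The MΦ markers were all detected in all libraries, and Csf1r, the receptor for the MΦ growth factor CSF1, stood at 46878 to 80123 normalized counts. The 12-week KO library stood apart in its markers of other cells. The summed level of the 6 neutrophil markers was 5260 normalized counts there and 392 in 12-week het, against 1.98 to 12.2 in the 4 younger libraries. The 7 monocyte markers summed to 36034 against 19352, and the 9 dendritic cell markers to 40970 against 12731, of which Ccr7 alone made up 38707 and 10331 (the other 8 summed to 2263 against 2400). The 12 MΦ markers summed to 98052 against 227104, of which Csf1r alone made up 46878 and 47225. The other 11 summed to 51173 in 12-week KO against 179880 in 12-week het. Of the 12 MΦ markers, 8 were over 2-fold lower in KO at 12 weeks, against 15.9% of all genes. The B and plasma cell markers summed to 1906 against 17550. The epithelial markers summed to 2304 in 12-week KO against 749 in 12-week het, and the endothelial and stromal markers to 1041 against 4645. In the 12-week KO library none of the listed markers of the 10 cell types was at 0 reads. The part of these cells in the results at 12 weeks was not tested.

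At 1 week the genotypes differed little in these genes, and not in 1 direction. The median log2 ratio of KO over het was 0.08 over the 10 members and -0.04 over all genes. 6 members were higher in KO, against 46.0% of all genes, and 4 lower. 0 of 10 were over 2-fold higher, against 4.73% of all genes, and 0 of 10 over 2-fold lower, against 2.22%. At this age the summed epithelial markers were at 1006 normalized counts in KO against 180 in het, the monocyte markers at 13601 against 4990 and the endothelial and stromal markers at 1330 against 765. Their part in these values was not tested. With 1 library a group there is no replicate check at a single age. The intervals given here are exact Clopper-Pearson 95% intervals from the reads, which cover counting error only. In such bulk samples, fewer cells of a type and less RNA per cell cannot be told apart.

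At 3 weeks all 10 members were higher in KO MΦs, against 52.1% of all genes. The interval of each member lay above 0, but the share of all genes with such an interval was not counted. The median log2 ratio was 0.72 (1.65-fold), against 0.02 over all genes. Nlrc5, Tap1 and H2-K1 were over 2-fold higher, which makes 3 of 10 members against 2.93% of all genes. Nlrc5 was also over 3-fold higher, 1 of 10 against 1.34%. Markers of other cells differed here too. The 7 monocyte markers summed to 24803 normalized counts in KO against 28316 in het. 2 of them were over 2-fold higher in KO. Ly6c2 had 9.73 normalized counts in het (only 4 reads) and 285 in KO, and Plac8 had 513 and 1706. 2 were over 2-fold lower in KO, namely Chil3 (97.3 in het and 26.4 in KO) and Fn1 (6970 and 3309). The dendritic cell marker Ccr7 had a log2 ratio of 1.62 (the other 8 markers of that list summed to 2124 in both). Their part in these ratios was not tested.

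At 12 weeks the median log2 ratio was 1.51 (2.84-fold), against 0.04 over all genes. 9 of 10 members were over 2-fold higher, against 8.66% of all genes, and 5 of 10 were over 3-fold higher, against 4.03%. The count over 3-fold was 2 with libraries scaled by total reads, and scaling to the other proteasome genes left 5 members over 2-fold and 2 over 3-fold. H2-D1, at 1.82-fold, was the member that stayed under 2-fold.

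**Figure D2:**
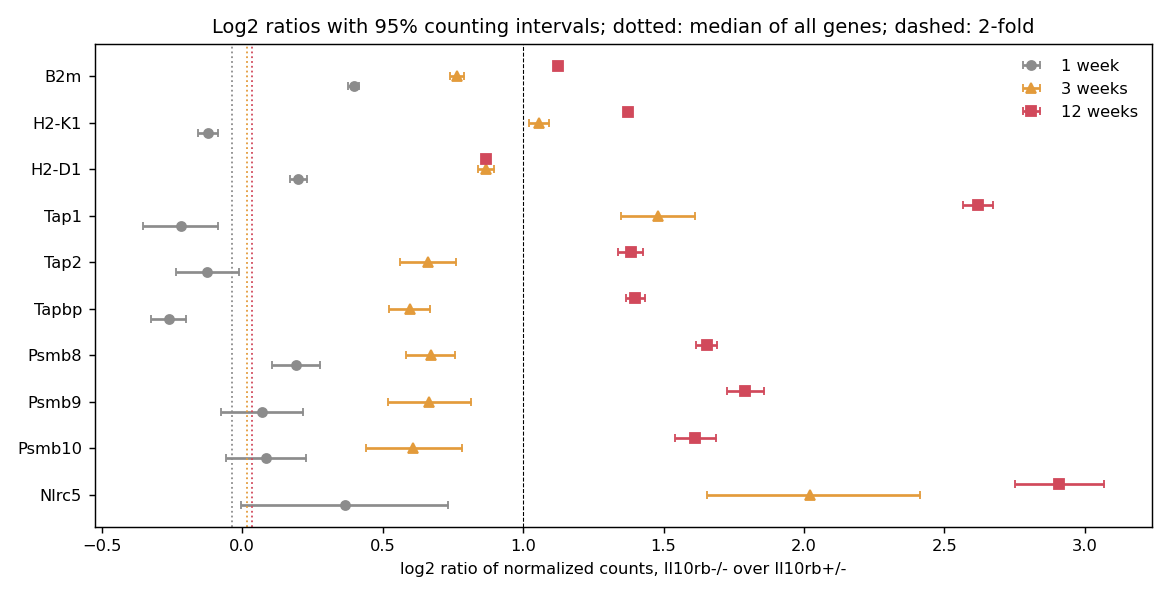
Log2 ratio of normalized counts, Il10rb-/- over Il10rb+/-, of each member at 1, 3 and 12 weeks, with 95% counting intervals as bars. All 10 ratios at 3 and 12 weeks lie to the right of the dotted medians of all genes, whereas those at 1 week lie between -0.26 and 0.40.

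The only replicated comparison sets the 3 KO against the 3 het libraries with age as a term. How far the genotype difference varied from age to age serves as its error. In limma with Benjamini-Hochberg adjustment, 0 of 11067 genes were called at an adjusted p under 0.05 (0%), and 0 of the 10 members. At an unadjusted p under 0.05 there were 853 genes (7.71%), among them 7 of the 10 members. That member count was 3 with total-read scaling, 3 with no mean-variance trend, 1 with no age term, 9 without the 1-week, 1 without the 3-week and 3 without the 12-week libraries. The estimates for the members were all above 0, from a log2 difference of 0.58 ± 0.33 (SE) for Tapbp to 1.76 ± 0.48 for Nlrc5, with adjusted p of 0.627 to 0.630. Without the 1-week libraries the median member estimate was 1.14 in place of 0.77, and the lowest adjusted p of a member was 0.0569, with 0 members and 20 genes called. Without the 12-week libraries the median was 0.45, with 0 members and 61 genes called.

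The light chain and the classical heavy chains were the most abundant members. B2m (chromosome 2, 122147686 to 122153083 of GRCm38) had 44832, 36410 and 61291 normalized counts in het and 59048, 61896 and 133451 in KO MΦs at 1, 3 and 12 weeks. KO was the higher library at each age, but the 1-week and 3-week KO values lie on either side of the 12-week het value, so the genotypes overlap across ages. The log2 ratios were 0.40 (interval 0.38 to 0.42), 0.77 (0.74 to 0.79) and 1.12 (1.11 to 1.13).

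H2-K1 (chromosome 17, 33996017 to 34000347), the heavy chain of H-2K, had 16136, 17465 and 28841 normalized counts in het and 14825, 36315 and 74730 in KO MΦs. It was slightly lower in KO at 1 week, with a log2 ratio of -0.12 (-0.16 to -0.09), and higher at 3 weeks (1.06, interval 1.02 to 1.09) and 12 weeks (1.37, interval 1.36 to 1.39). H2-D1 (chromosome 17, 35262730 to 35267499), the heavy chain of H-2D, had 21959, 30881 and 55398 in het and 25228, 56329 and 101050 in KO MΦs. Its log2 ratio was 0.20 at 1 week and 0.87 at both later ages, the smallest member ratio at 12 weeks. H2-D1 was also the member that differed most with age in het, being 2.52-fold higher at 12 than at 1 week.

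Heavy chain genes are near-identical in places, and 6.90% of the 75-base windows of H2-D1 and 1.55% of those of H2-K1 also occur in transcripts of other genes, against 0% in 7 members and 0.99% in Tapbp. Per exon base, the ratio of B2m to the sum of both heavy chains was 2.73, 1.78 and 1.73 in het and 3.48, 1.57 and 1.76 in KO MΦs at 1, 3 and 12 weeks. KO over het, this ratio was 1.27, 0.880 and 1.02.

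The subunits of the peptide transporter differed from each other. Tap1 (chromosome 17, 34187553 to 34197225) had 1257, 1312 and 1601 normalized counts in het and 1080, 3656 and 9842 in KO MΦs. The het libraries stayed within a narrow range, and the 3-week and 12-week KO libraries lay above all of them. The log2 ratios were -0.22 (-0.35 to -0.09), 1.48 (1.35 to 1.61) and 2.62 (2.57 to 2.67), which is 6.15-fold at 12 weeks.

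Tap2 (chromosome 17, 34203527 to 34216321) had 1700, 2465 and 2728 in het and 1561, 3895 and 7112 in KO MΦs, with log2 ratios of -0.12, 0.66 and 1.38. The ratio of Tap1 to Tap2 per exon base, which does not depend on how libraries are scaled, was 0.886, 0.637 and 0.703 in het and 0.829, 1.12 and 1.66 in KO MΦs. Tap1 was therefore the scarcer of the pair in all 3 het libraries and the more abundant in KO at 3 and 12 weeks.

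Tapbp (chromosome 17, 33915899 to 33929292) had 5697, 4687 and 5189 normalized counts in het and 4752, 7085 and 13689 in KO MΦs. Its log2 ratio was the lowest of the members at 1 week (-0.26, interval -0.32 to -0.20) and at 3 weeks (0.60), and 1.40 at 12 weeks. Its annotated start overlaps Zbtb22, for which the log2 ratios were -0.21, -0.17 and 0.60. The gene models of Tap1 and Psmb9 also overlap at their starts, and the strand setting of the counting is not given in the sources used here.

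**Figure D3:**
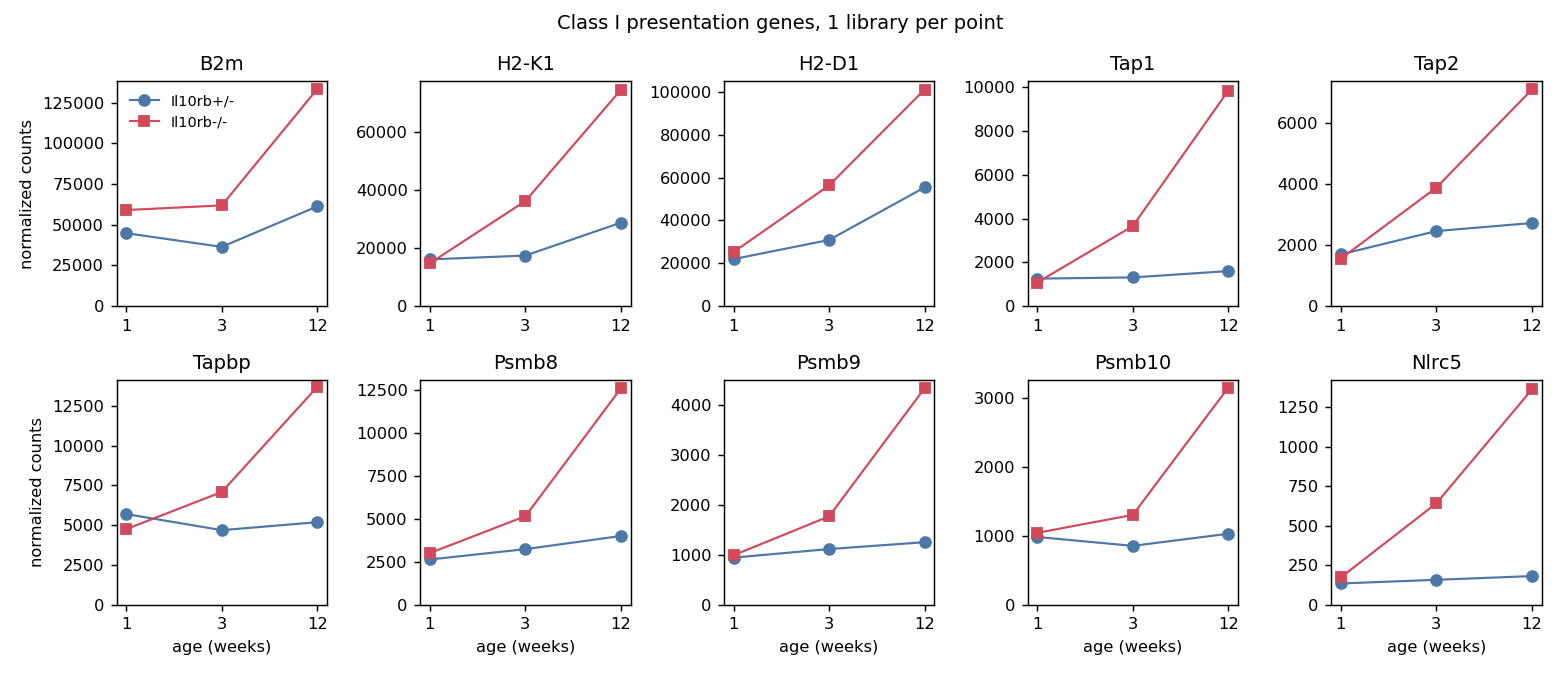
Normalized counts of each member against age in weeks (ages evenly spaced), with circles for Il10rb+/- and squares for Il10rb-/- libraries, 1 library a point. The 12-week Il10rb-/- library is the highest of the 6 in all 10 panels, and the 1-week points of both genotypes lie close together.

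The 3 inducible catalytic subunits had nearly equal ratios at each age from 3 weeks. Psmb8 (chromosome 17, 34197721 to 34201454; the chymotrypsin-like subunit β5i) had 2635, 3237 and 4002 normalized counts in het and 3011, 5152 and 12592 in KO MΦs. Psmb9 (chromosome 17, 34181987 to 34187764; β1i) had 943, 1115 and 1251 in het and 990, 1768 and 4331 in KO MΦs. Psmb10 (chromosome 8, 105935735 to 105938444; β2i) had 986, 857 and 1033 in het and 1045, 1307 and 3157 in KO MΦs. For each of the 3, the KO libraries at 3 and 12 weeks lay above every het library.

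Their log2 ratios at 3 weeks were 0.67, 0.67 and 0.61, with overlapping intervals. At 12 weeks they were 1.65 (1.62 to 1.69), 1.79 (1.73 to 1.86) and 1.61 (1.54 to 1.69), or 3.15-fold, 3.46-fold and 3.06-fold. The ratio of Psmb8 to Psmb9 per exon base stayed between 2.82 and 3.22 in all 6 libraries. Psmb9 and Tap1, which share the stretch shown above, did not keep a fixed ratio: Tap1 to Psmb9 was 0.759, 0.670 and 0.728 in het and 0.621, 1.18 and 1.29 in KO MΦs.

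The constitutive counterparts had smaller ratios than the inducible subunits at 3 and 12 weeks. Psmb5 had log2 ratios of 0.22, 0.26 and 0.38, Psmb6 of 0.57, 0.28 and 0.76, and Psmb7 of 0.23, 0.24 and 0.36 at 1, 3 and 12 weeks. Within a library, Psmb8 to Psmb5 per exon base was 7.46, 8.74 and 7.55 in het and 7.32, 11.6 and 18.3 in KO MΦs. Psmb9 to Psmb6 was 0.352, 0.395 and 0.315 in het and 0.2498, 0.515 and 0.646 in KO MΦs, and Psmb10 to Psmb7 was 1.05, 0.921 and 0.676 in het and 0.9502, 1.19 and 1.61 in KO MΦs. All 3 ratios were lower in KO at 1 week and higher in KO at 3 and 12 weeks. No intervals were taken for them, and the 1-week log2 difference of Psmb8 to Psmb5 was only -0.028, so its direction is not resolved.

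The mean log2 difference over the 3 ages was 0.55 ± 0.66 (SD) for Psmb8 to Psmb5, 0.31 ± 0.77 for Psmb9 to Psmb6 and 0.49 ± 0.71 for Psmb10 to Psmb7. Exact two-sided permutation tests by sign flips over the ages gave p = 0.5, 0.75 and 0.5, where the smallest p that 3 ages allow is 0.25. No outcome of this design could have reached a p under 0.05.

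**Figure D4:**
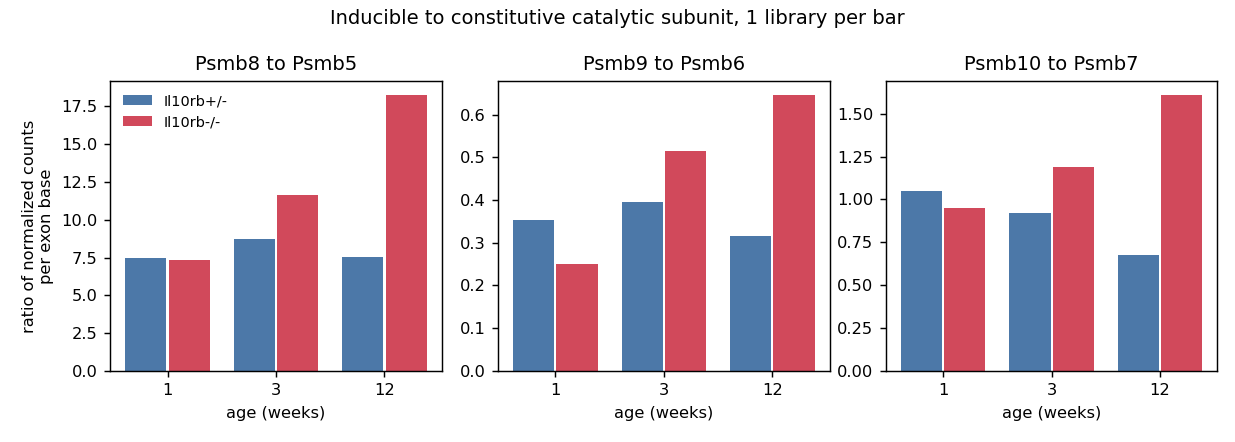
Ratio of normalized counts per exon base of each inducible catalytic subunit to its constitutive counterpart, by age in weeks, with 1 library a bar. At 12 weeks the ratio of Psmb8 to Psmb5 is 7.55 in Il10rb+/- and 18.3 in Il10rb-/- MΦs.

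Nlrc5 (chromosome 8, 94434356 to 94527272) had the lowest level and the largest ratios of the 10 at 3 and 12 weeks. It had 135, 158 and 182 normalized counts in het and 174, 643 and 1363 in KO MΦs, from 65 reads in the shallowest library to 2141 reads in 12-week KO. At 1 week its interval reached 0 (log2 ratio 0.37, interval -0.0044 to 0.73), and these reads cannot show a difference. The log2 ratio was 2.02 (1.66 to 2.41) at 3 weeks and 2.91 (2.75 to 3.07), or 7.51-fold, at 12 weeks. It ranked 97 of 11067 genes by its ratio at 3 weeks and 120 at 12 weeks, and Tap1 ranked 172 and 157.

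Age was compared within each genotype as well. In het MΦs the median log2 ratio of 12 over 1 week was 0.44, and 1 member (H2-D1) was over 2-fold higher, against 14.5% of all genes. In KO MΦs it was 2.10, and 10 of 10 members were over 2-fold higher, against 16.2%, from 2.26-fold for B2m to 9.11-fold for Tap1. From 1 to 3 weeks the medians were 0.17 in het (0 of 10 over 2-fold, against 8.66%) and 1.00 in KO MΦs (5 of 10, against 7.64%). From 3 to 12 weeks they were 0.28 in het (0 of 10, against 9.35%) and 1.10 in KO MΦs (7 of 10, against 11.7%). Comparisons with the same library share its error.

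6 of the members, Tapbp, H2-K1, Psmb9, Tap1, Psmb8 and Tap2, lie within 1 interval of chromosome 17 from Tapbp to Tap2. All 6 were over 2-fold higher in KO at 12 weeks (8.66% of all genes were), and their median log2 ratio was then 1.53. The same interval holds 17 other genes over the filter, among them the MHC class II genes H2-Oa, H2-DMa, H2-DMb1 and H2-DMb2. 0 of these 17 were over 2-fold higher in KO at any age. The shares of all genes are 4.73%, 2.93% and 8.66% at 1, 3 and 12 weeks. A count of 0 of 17 is near these shares and does not set the 17 genes apart from all genes. Their median log2 ratios were -0.06, -0.16 and -0.05 at 1, 3 and 12 weeks. Single ratios ran from -0.46 to 0.71 at 3 weeks and from -1.42 to 0.60 at 12 weeks.

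Genes of the same pathway outside the members were followed in 10 lists, and 0 of their 104 genes over the filter were called by limma (17 had an unadjusted p under 0.05, against 7.71% of all genes). The nonclassical heavy chains and class I relatives resembled the members in part. 6 of 13 were over 2-fold higher in KO at 3 weeks, against 2.93% of all genes, and 8 of 13 at 12 weeks, against 8.66%, and 3 of 13 were over 2-fold lower at 12 weeks, against 15.9% of all genes. H2-Q7 (Qa-2) had 922 and 6555 normalized counts at 3 weeks and 3118 and 23214 at 12 weeks in het and KO, log2 ratios of 2.83 and 2.90. H2-Q5 had log2 ratios of 2.16 and 2.07. Of their 75-base windows, 19.1% and 20.7% also occur in other genes, so their counts are uncertain. H2-T22, H2-T10, H2-Q4 and H2-Q10, also over 2-fold higher at 3 weeks, share 19.6%, 14.3%, 7.22% and 13.5% of their windows. The count over 2-fold may therefore not reflect separate genes, and the part of shared reads was not tested. Fcgrt, the neonatal Fc receptor, which has a class I fold but presents no peptide, had 6610 and 807 normalized counts at 12 weeks (log2 ratio -3.03).

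Most of the remaining peptide-loading genes had ratios nearer to 0. The median log2 ratio of 11 chaperones, translocon subunits and trimming enzymes was 0.10 at 3 weeks and 0.36 at 12 weeks. At 12 weeks 1 of the 11 was over 2-fold higher, which is near the 8.66% of all genes. That gene was Tapbpl (TAPBPR, a tapasin-related peptide editor), with a log2 ratio of 1.66. Erap1, which trims peptides in the endoplasmic reticulum, had 0.79.

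Among 16 other subunits and assembly factors of the 20S core, 0 were over 2-fold higher at 3 or 12 weeks. The shares of all genes were 2.93% and 8.66%, and the medians of the 16 were 0.05 and 0.54. Of 20 subunits of the 19S regulatory particle, 1 was over 2-fold higher at 12 weeks (Psmd8, 1.27), against 8.66% of all genes. Their medians were 0.15 and 0.41 at 3 and 12 weeks. Counts of 0 of 16 and 1 of 20 are near these shares and do not set the lists apart from all genes. Of the 5 activators and inhibitors, Psme1 (0.57 and 1.23 at 3 and 12 weeks) and Psme2 (0.58 and 1.64) form the PA28 activator. At 3 weeks both stood slightly below the inducible subunits (0.61 to 0.67). At 12 weeks Psme2 stood among the inducible subunits (1.61 to 1.79) and Psme1 below them. The other 3 activators and inhibitors were at or under 0.47. Of 6 cytosolic peptidases, Lap3 (1.27 at 12 weeks) was the 1 over 2-fold higher, against 8.66% of all genes, and Thop1 was at -0.87.

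The factors with which Nlrc5 works are of the RFX, NF-Y and CREB families. Together with the class II transactivator Ciita they had a median log2 ratio of -0.05 at 3 weeks and 0.44 at 12 weeks. 0 of these 8 genes were over 2-fold higher at 3 or 12 weeks, against 2.93% and 8.66% of all genes. Ciita, the relative of Nlrc5 for class II genes, had 0.22 and 0.72. Of 17 interferon signalling genes, 2 were over 2-fold higher at 3 weeks and 5 at 12 weeks, against 2.93% and 8.66% of all genes.

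Ifng, which encodes interferon-γ and is made by T and NK cells, was represented by 0 to 4 reads in the 1-week and 3-week libraries, by 51 reads in 12-week het and by 795 reads in 12-week KO. At the same age the 6 T cell markers summed to 793 normalized counts in KO against 942 in het, of which Cd2 made up 175 and 748, and the other 5, each higher in KO, summed to 618 against 194. The NK cell markers summed to 218 against 93.1. Of these, Nkg7, Gzma and Gzmb were higher in KO, and Prf1 (0.637 against 17.5) and Klrb1c (1.27 against 5.67) were lower. Ifnb1 was lower in KO at all 3 ages, with log2 ratios of -2.33, -0.63 and -3.61. The 5 NF-κB subunits had medians of 0.36 and 0.67 at 3 and 12 weeks. 0 of the 5 were over 2-fold higher, against 2.93% and 8.66% of all genes.

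**Figure D5:**
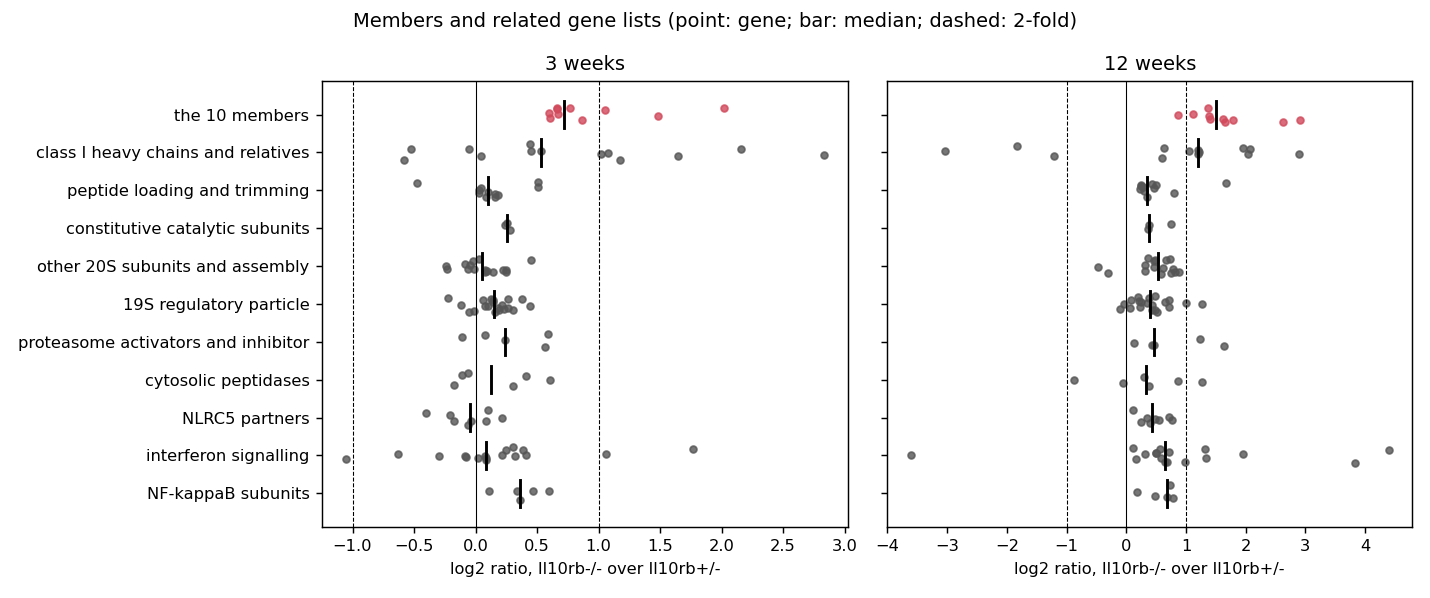
Log2 ratios of normalized counts, Il10rb-/- over Il10rb+/-, at 3 weeks (left) and 12 weeks (right) for the 10 members (red) and 10 lists of related genes (grey), with 1 point a gene, bars at medians and dashed lines at 2-fold. The member median is 0.72 at 3 weeks and 1.51 at 12 weeks, and the median of the other 20S genes is 0.05 and 0.54.

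Across the 6 libraries the members followed each other. The Pearson correlation of each with the mean of the other 9, on log2 values, ran from 0.89 for B2m to 0.99 for Psmb8 and Psmb9. Among 8794 genes outside the lists with 50 or more normalized counts in every library, 194 (2.21%) had a correlation of 0.95 or more with the member mean. The 5 highest were Phf11b (0.998), Prkcd, Pigf, Gpat4 and Vopp1 (each 0.991 or more). Phf11b had 206, 221 and 293 normalized counts in het and 226, 406 and 726 in KO MΦs. These correlations describe 6 libraries that share ages and genotypes, and the 12-week KO library is the highest of the 6 for each member.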

How the data were processed

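RNA-seq was analysed in 6 libraries, 1 for each genotype and age in the labels. TopHat (mapping of single-end reads to mm10), HTSeq (reads per gene) and DESeq (size factors) were the tools of the authors. The deposited values are this normalized signal per gene, with 0 shown as 1. Versions, annotation and strand setting are not given in the sources used here. Apart from values of 1, 100% of low values were multiples (within 0.1) of a step particular to the library, which gave the reads. No count model was run on these reads, by choice, because the deposited table is not one of counts.

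Log2 ratios used the deposited values. Their intervals come from exact Clopper-Pearson 95% bounds on read shares. limma 3.58.1 (R 4.3.3) was fitted on log2 of the value plus 1 with terms for genotype and age and a mean-variance trend, and p-values of the 11067 filtered genes were adjusted after Benjamini and Hochberg. The samples are single libraries, so its p-values measure the spread of the genotype effect between ages. Other steps ran in Python 3.11.15 (pandas 2.3.3, scipy 1.17.1, numpy 2.4.6, matplotlib 3.10.9), and fits, intervals, scaling and motif search were tested on simulated data. Gene positions are from GENCODE for GRCm38 (14085 of 14097 identifiers found). The members, lists and motifs were chosen with earlier results of these data known. Named genes are the members, their counterparts, Il10rb, in each list up to 3 genes with the largest absolute log2 ratio at 3 or 12 weeks, the most abundant marker of a cell type and the 5 genes most like the member mean. Zbtb22, Ly6c2, Plac8, Chil3, Fn1, Klrb1c, Nkg7, Gzma, Prf1, H2-T22, H2-T10, H2-Q4, H2-Q10 and the class II genes near the members were named after their values were seen. Some results are not reported here.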

Additional observations from a re-analysis of the deposited data

Results flagged for a closer look

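4 members had log2 ratios of KO over het below 0 beyond counting error at 1 week and above 0 beyond counting error at 3 and 12 weeks. At 1 week they were -0.12 for H2-K1, -0.22 for Tap1, -0.12 for Tap2 and -0.26 for Tapbp. The difference between ages was not tested, since each group holds 1 library. The share of all genes with such a pattern was not counted. The remaining 6 members were above 0 at all 3 ages, with intervals that included 0 at 1 week for Psmb9, Psmb10 and Nlrc5.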

How the results depend on the processing

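The count of members called in the fit with age as a term was 0 under total-read scaling, TMM scaling, a pseudocount of 10, a filter at 50 normalized counts in every library, no filter, no mean-variance trend, no age term and each left-out age. All 10 member estimates kept their direction in these fits. The count of all genes called was 1 with a pseudocount of 10 and 1 with no age term (Il10rb in both), and 3 to 61 when an age was left out (20 without 1 week, 3 without 3 weeks and 61 without 12 weeks). Total-read scaling moved the 12-week median of all genes from 0.04 to -0.19. It gave a member median of 1.29 at 12 weeks, 1.47 above that of all genes as before, and 2 members over 3-fold. Scaling each library to its other proteasome genes gave member medians of -0.065 at 1 week, 0.62 at 3 weeks and 1.06 at 12 weeks, with 5 members over 2-fold and 2 over 3-fold at 12 weeks. The mean difference of Psmb9 to Psmb6 ran from -0.055 without the 12-week libraries to 0.71 without the 1-week libraries, and that of the other pairs stayed above 0. The cause of these shifts was not tested. 26 of the 30 member ratios were above 0 with the deposited, total-read and TMM scaling and with a pseudocount of 10. With scaling to the other proteasome genes, 4 of 10 were above 0 at 1 week, and 10 of 10 at 3 and at 12 weeks. The planned edgeR and DESeq2 fits on the reads read back were not run, by choice. No paired analysis was possible because each group holds 1 library and replicate numbers pair nothing beyond age, which is already a term. Depth limited Nlrc5 most, with 65 reads in 3-week het.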
